A study of Rattus norvegicus with 8 samples.

Results

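The miRNAs described here are those of the miR-99, miR-100 and miR-125 families in rat kidney. They are the rows of the deposited count table named miR-99a, miR-99b, miR-100, miR-125a or miR-125b with any arm suffix, and 11 of the 620 rows carry such a name. The mature strands are rno-miR-99a, rno-miR-99b, rno-miR-100, rno-miR-125a-5p and rno-miR-125b-5p. The other 6 rows are strands from the opposite arm of the hairpins, namely miR-99a*, miR-99b*, miR-100*, miR-125a-3p, miR-125b-3p and miR-125b*. All 8 libraries came from male Fisher 344 rats of the Big Blue transgenic strain, which were 6 weeks old when dosing began. Aristolochic acid (AA), a plant-derived kidney carcinogen, was given as the sodium salt by gavage to 4 rats at 10.0 mg/kg body weight on 5 days a week over 12 weeks, and 4 control rats (CTL) received 0.9% sodium chloride in the same way. Each group of 4 rats has 4 libraries. The tissue field of the labels says liver, whereas the study and the rest of the labels say kidney. In these counts the 5 kidney miRNAs used as markers (miR-30a, miR-10a-5p, miR-192, miR-204 and miR-194) took 24.8% ± 2.08 of control reads and 23.5% ± 3.27 of AA reads (SD, n = 4 each). Most of this was miR-30a and miR-10a-5p, with control means of 125637 and 100525 CPM, while miR-204 was at 30.3 CPM. Whether these markers tell kidney from liver was not tested. miR-122, the abundant miRNA of hepatocytes, was at 4.05 to 53.0 CPM in the control libraries and at 0.696 to 2.96 CPM in 3 AA libraries, while AA library 2 held 523 CPM. CPM are read counts scaled to library size, here with TMM normalization.

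Enzymes cut a short duplex out of a hairpin precursor, and an Argonaute protein then loads mainly the strand of 1 arm, so that the partner strand is found at much lower levels. Bases 2 to 8 of the mature strand, the seed, are the main contact with target mRNAs. The miR-125 family is the vertebrate relative of lin-4, a regulator of developmental timing in worms, and the miR-99 and miR-100 family is known as a repressor of the growth kinase mTOR. Both families are encoded together with let-7 in 3 clusters that are copies of 1 ancestral cluster.

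The mature sequences show why these miRNAs fall into 2 seed groups. RefSeq (build GRCr8) gave a sequence for 8 of the 11 rows, and the 4 mature strands among them are printed here. They are written 5′ to 3′ with the seed in capitals, the miR-99 group first and the miR-125 group after it. rno-miR-351, which is not a member but has the miR-125 seed, closes the list. rno-miR-99a is named only.
rno-miR-99b: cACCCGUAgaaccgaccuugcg
rno-miR-100: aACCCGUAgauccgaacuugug
rno-miR-125a-5p: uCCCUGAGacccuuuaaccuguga
rno-miR-125b-5p: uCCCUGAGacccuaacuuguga
rno-miR-351: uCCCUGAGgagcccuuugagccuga

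All lie on the plus strand except rno-miR-351. The positions are chr1:67350070-67350091 for rno-miR-99b, chr8:50798307-50798328 for rno-miR-100, chr1:67350689-67350712 for rno-miR-125a-5p, chr11:29732588-29732609 for the Mir125b2 copy of rno-miR-125b-5p and chrX:137725157-137725181 for rno-miR-351. Within the sequences, bases are counted from 1 at the 5′ end of rno-miR-99b, whose base is written first. rno-miR-100 differed from it by the 4 substitutions C1A, A11U, C16A and C21U, none of them in the seed. rno-miR-125a-5p and rno-miR-125b-5p had the same first 13 bases and lengths of 24 and 22 bases, and rno-miR-351 shared only the first 8 bases with rno-miR-125b-5p. Whether reads of these near copies were divided between names when the authors mapped them was not tested.

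The hairpins lie in 3 clusters of unequal size, all on the plus strand (RefSeq, GRCr8). Mir99b, Mirlet7e and Mir125a fill 696 bases at chr1:67350064-67350759, inside the span of the protein-coding gene Spaca6. Mir99a, Mirlet7c1 and Mir125b2 are spread over 45.3 kb at chr11:29687392-29732659, inside the long non-coding RNA LOC103693508. Mir100, Mirlet7a-2 and Mir125b1 are spread over 51.8 kb at chr8:50798295-50850122, inside the spans of Mir100hgl and the long non-coding RNA Lnc215. miR-125b-5p is made by hairpins of the last 2 clusters, so its reads cannot be assigned to a locus. The opposite arms of the pair do differ. They are shown because the miR-125b results turn on them, with bases 2 to 8 in capitals.
rno-miR-125b-1-3p: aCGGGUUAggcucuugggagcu
rno-miR-125b-2-3p: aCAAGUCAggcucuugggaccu

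They lie on the plus strand at chr8:50850090-50850111 and chr11:29732627-29732648. Counted from the 5′ end of rno-miR-125b-1-3p, the substitutions in rno-miR-125b-2-3p were G3A, G4A, U7C and G20C. The count table names the opposite arms miR-125b-3p and miR-125b*, and which of them belongs to which hairpin was not settled here. Values for them are therefore given by the name in the table.

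The members made up 0.936% ± 0.123 of all counted control reads and 0.953% ± 0.121 of AA reads (SD, n = 4 each), a difference smaller than the spread between rats. With TMM normalization the direction was the other way. There the members summed to 10049 ± 1372 CPM in control rats and 8904 ± 1382 CPM in AA rats (SD, n = 4 each). In reads, the control libraries held 160238, 128108, 159145 and 109020 reads on members, and the AA libraries 124539, 148168, 152135 and 126350. The depth behind these values was 13412373 to 15616670 reads per library. rno-miR-99b alone supplied most of the members' reads and ranked 19th among the 620 rows by its control mean, while the other 4 mature strands ranked between 49th and 73rd.

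rno-miR-99b, the miR-99 strand of the chromosome 1 cluster, was at 8771, 6521, 7114 and 6354 CPM in control libraries 1 to 4 and at 7130.4, 5749, 7494 and 5372 CPM in AA libraries 1 to 4. The groups overlapped, and library 4 was the lowest of each. Its means were 7190.3 ± 1103 and 6437 ± 1034 CPM (SD, n = 4 each), with a log2 fold change, AA minus control, of -0.16 (standard error 0.17, 95% interval -0.54 to 0.22, adjusted p = 0.54 with the quasi-likelihood test of edgeR). rno-miR-125a-5p, the miR-125 strand of the same cluster, was at 518, 440.4, 409 and 429.6 CPM in the control libraries and 428, 364, 531 and 475 in the AA libraries. Here the highest and the lowest of the 8 values both lay in AA rats. The log2 fold change was 0.00 (standard error 0.17, 95% interval -0.37 to 0.37, adjusted p = 1.00 from edgeR), from means of 449 ± 47.6 and 449 ± 71.0 CPM (SD, n = 4 each).

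rno-miR-99a, from the chromosome 11 cluster, was at 954, 1005, 976 and 814 CPM in the control libraries and at 730.5, 879, 948 and 568 CPM in the AA libraries. AA libraries 2 and 3 reached into the control range, and AA libraries 1 and 4 lay below it. rno-miR-100, from the chromosome 8 cluster, was at 704, 554, 559 and 384 CPM in control rats and at 486, 413, 609 and 306 in AA rats. The ranges of the groups overlapped widely. rno-miR-125b-5p, which both of these clusters encode, was at 995, 829, 745 and 809.6 CPM and at 791, 583, 824 and 712 CPM. Again the groups overlapped, with AA library 2 lowest. The log2 fold changes of rno-miR-99a, rno-miR-100 and rno-miR-125b-5p were -0.26, -0.28 and -0.22, with 95% intervals of -0.67 to 0.14, -0.82 to 0.26 and -0.58 to 0.15, and none was called (adjusted p = 0.34, 0.46 and 0.39 from edgeR). These intervals include no change as well as losses of 0.58 or more on the log2 scale. With total counts the log2 fold changes were -0.05, -0.08 and -0.013 in the same order, 0.04 for rno-miR-99b and 0.21 for rno-miR-125a-5p.

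**Figure D1:**
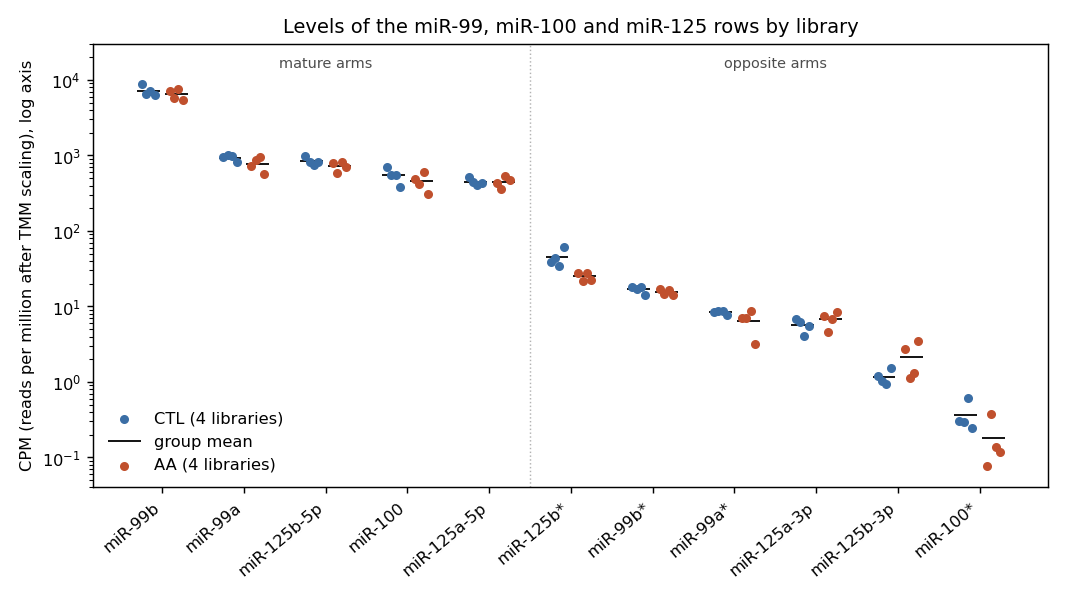
CPM on a log axis for the 11 rows in 4 control (blue) and 4 AA (orange) libraries, left to right in the order of their numbers, with the group mean as a line. Mature arms are left of the dotted line and opposite arms right of it. miR-99b lies highest at 5372 to 8771 CPM, and in miR-125b* the 4 AA values, 21.8 to 28.1 CPM, lie below all 4 control values, 34.2 to 61.2 CPM.

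The order of the mature strands was miR-99b, miR-99a, miR-125b-5p, miR-100 and miR-125a-5p by the control means. miR-99b lay above miR-99a in all 8 libraries, by 6.49 to 9.76-fold in CPM, although both belong to 1 family. miR-99a and miR-125b-5p, the next neighbours, did not hold an order, since miR-99a was the higher in 5 of the 8 libraries. miR-125b-5p exceeded miR-100 in all 8, by 1.33 to 2.33-fold, and miR-100 exceeded miR-125a-5p in 6 of 8. The strands are of like length, but how well each is ligated and amplified was not measured, so that levels of different miRNAs are comparable only roughly.

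Of the 11 rows, 10 reached the minimum of 10 reads in at least 4 libraries and were tested, and 1 of these 10, miR-125b*, had an adjusted p-value under 0.05. Over all 367 miRNAs tested, 60 were called (16.3%), so the share among the members was no higher than the background. The called member was lower in AA, and 22 of the 367 (5.99%) were called in that direction. The median log2 fold change was -0.19 over the 10 members and 0.06 over all tested miRNAs, and the median size without sign was 0.27 and 0.40. A log2 fold change below 0 was found in 7 of the 10 members with TMM normalization, in 8 with DESeq2 size factors and in 5 with total counts. With total counts the median moved from -0.19 to 0.01 over the members and from 0.06 to 0.27 over all tested miRNAs. Such a scaling shifts all miRNAs alike, so these counts of direction decide nothing about the members themselves. Between these scalings only miR-99b, miR-99b* and miR-125a-5p changed sign, from -0.16, -0.13 and 0.00 with TMM normalization.

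**Figure D2:**
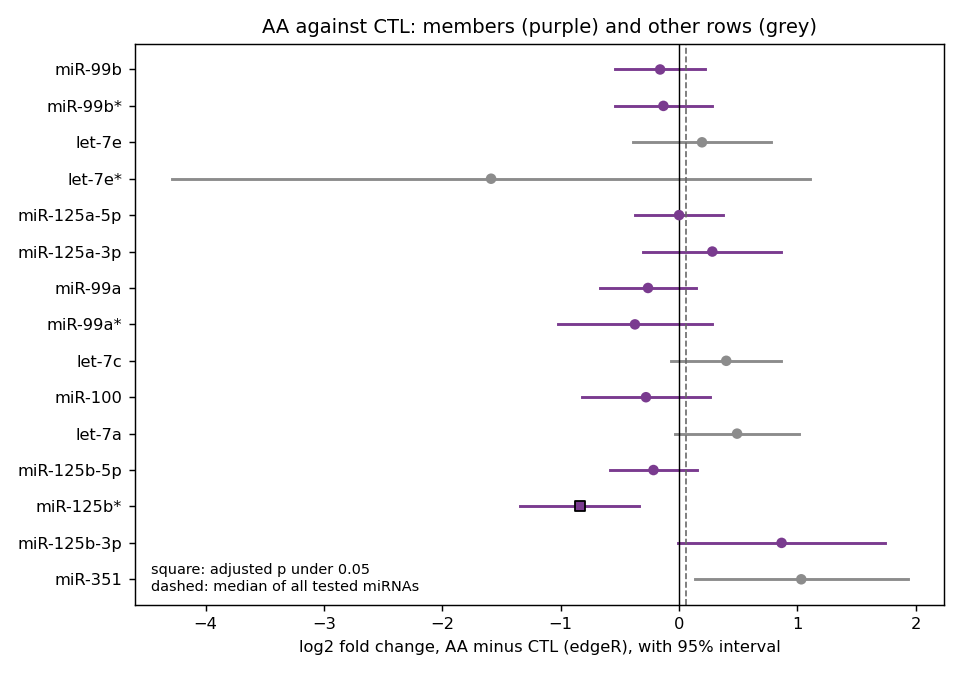
Log2 fold change, AA minus control, with its 95% interval for the 10 tested members (purple), the 4 tested let-7 partners and miR-351 (grey), from 4 libraries a group. The square marks the call, miR-125b* at -0.84, and the dashed line the median of all 367 tested miRNAs at 0.06.

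miR-125b* fell in AA rats. Its reads were 522, 598, 551 and 751 in the control libraries and 357, 401, 408 and 379 in the AA libraries. In CPM these were 39.1, 44.0, 34.2 and 61.2 against 27.6, 21.8, 28.1 and 22.5, so that every AA library lay below every control library. Such a separation, in either direction, was seen in 24.3% of the 367 tested miRNAs and in 1 of the 10 members. The means were 44.6 ± 11.7 and 25.0 ± 3.33 CPM (SD, n = 4 each). The log2 fold change was -0.84 (standard error 0.23, 95% interval -1.34 to -0.34, adjusted p = 0.031 from edgeR). DESeq2's Wald test gave an adjusted p of 0.0026. With total counts the call was lost (adjusted p = 0.065 from edgeR). It was also lost without control library 1, 2 or 4 or AA library 2 or 4, where adjusted p-values from edgeR ran from 0.0501 to 0.075, and without both libraries numbered 4 (log2 fold change -0.60, adjusted p = 0.060).

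Some markers of other cell types were called between the same groups, beside 16.3% called over all tested miRNAs, and the lists were not tested as sets. Of the 4 leukocyte miRNAs, miR-142-3p and miR-223 were called higher in AA (log2 fold changes 1.47 and 1.02, adjusted p = 0.0018 and 0.019 from edgeR), and the list summed to 1264, 1089, 1164 and 914 CPM in the control libraries and 2435, 2930, 2057 and 4121 CPM in the AA libraries, with miR-142-3p as its most abundant member. Of the 3 fibroblast and stroma miRNAs, miR-199a-3p was called higher (log2 fold change 0.65, adjusted p = 0.033 from edgeR), and the sums were 472, 517, 468 and 526 CPM against 536, 817, 854 and 994 CPM. Of the 5 kidney miRNAs, miR-194 and miR-204 were called lower (log2 fold changes -0.73 and -0.80, adjusted p = 0.0499 and 0.034 from edgeR). Neither of the endothelial miRNAs (miR-126, miR-126*), of the smooth muscle miRNAs (miR-143, miR-145) or of the red blood cell miRNAs (miR-144, miR-451) was called. No marker on these lists was at 0 in all libraries. Fewer cells of a type and less miRNA per cell cannot be told apart in whole kidney, and the part of these shifts in the fall of miR-125b* was not tested.

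miR-125b-3p, the other opposite arm of miR-125b, was rare. It had 16, 14, 15 and 19 reads in the control libraries and 35, 21, 19 and 58 in the AA libraries. AA libraries 1 and 4 were the highest, and AA libraries 2 and 3 lay within the control range in CPM. Its log2 fold change of 0.87 (standard error 0.40, 95% interval -0.01 to 1.74) was not called (adjusted p = 0.17 from edgeR), and without AA library 4 it was 0.44. miR-125a-3p was at 4.03 to 6.82 CPM in control rats and 4.61 to 8.35 in AA rats, with a log2 fold change of 0.28 (adjusted p = 0.48 from edgeR), which was 0.08 without AA library 4, 0.11 without AA library 1 and 0.15 without control library 3. miR-99b* was at 14.1 to 18.4 and 14.04 to 16.9 CPM, and its log2 fold change of -0.13 stood beside -0.16 for its mature strand (adjusted p = 0.65 from edgeR). miR-99a* was at 7.74 to 8.76 CPM in control rats and at 6.96, 6.94, 8.81 and 3.20 CPM in the AA libraries, where library 4 stood lowest (log2 fold change -0.37, adjusted p = 0.40 from edgeR). With total counts the log2 fold changes were 1.06 for miR-125b-3p, 0.49 for miR-125a-3p, 0.065 for miR-99b* and -0.17 for miR-99a*. miR-100* had 4, 4, 10 and 3 reads in the control libraries and 1, 7, 2 and 2 in the AA libraries, too few to be tested.

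The ratio of 2 miRNAs within a library does not depend on how libraries are scaled, and 13 such ratios were tested with the exact permutation test, two-sided, on log2 values. For 4 against 4 rats the smallest possible p is 0.0286. After adjustment over the 13 ratios none had an adjusted p under 0.05, but at least 8 ratios at this smallest p would have been needed for any to do so, so the adjusted values say little about a single ratio.

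The arms of miR-125b gave the ratios with the smallest p. For miR-125b-5p to miR-125b*, the log2 ratios were 4.67, 4.23, 4.44 and 3.73 in the control libraries and 4.84, 4.74, 4.87 and 4.99 in the AA libraries. All AA libraries lay above all control libraries, although the step between the nearest of them was small. The mean rose by 0.59, from 4.27 ± 0.40 to 4.86 ± 0.10 (SD, n = 4 each, exact permutation p = 0.0286, adjusted p = 0.19), which is 19.3 miR-125b-5p reads per miR-125b* read in control rats and 29.0 in AA rats as geometric means. Since miR-125b-5p pools reads from both miR-125b hairpins, this is not the arm ratio of a single hairpin. For miR-125b-3p to miR-125b*, the log2 ratios were -4.98, -5.37, -5.15 and -5.27 against -3.33, -4.22, -4.39 and -2.70, again without overlap (difference 1.53, exact permutation p = 0.0286, adjusted p = 0.19). The rarer of these arms rests on 14 to 19 reads per control library. miR-125b-5p to miR-125b-3p went the other way, from 9.46 ± 0.31 to 8.52 ± 0.72 (SD, n = 4 each, exact permutation p = 0.0571, adjusted p = 0.19), and its groups overlapped. Both ratios without overlap contain miR-125b*, the called row, so they are not independent of that call. For the ratio between the opposite arms, the share of like ratios without overlap was not counted.

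**Figure D3:**
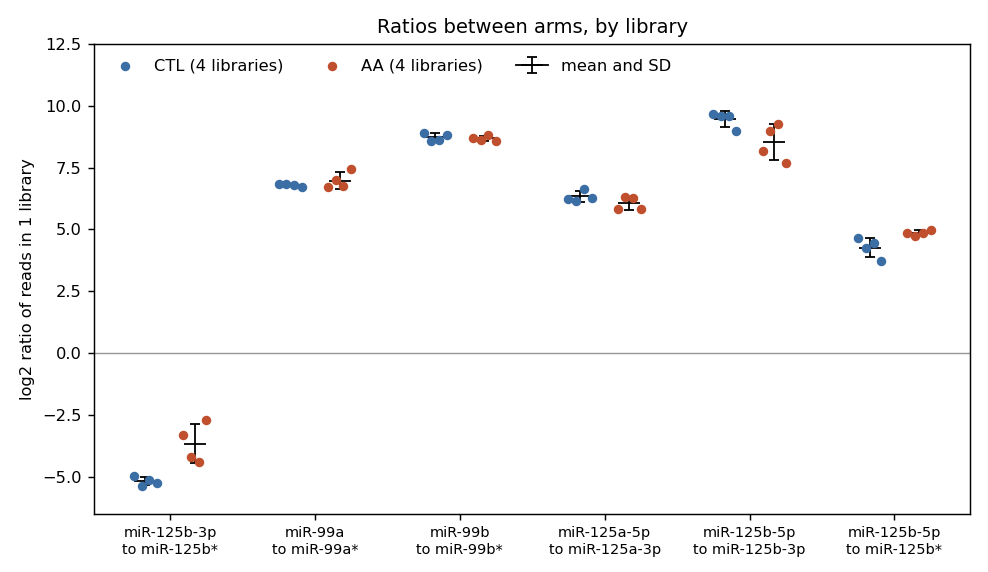
Log2 ratio of reads between arms within each library, for 4 control (blue) and 4 AA (orange) libraries in the order of their numbers, with mean and SD in black. The groups do not overlap in miR-125b-3p to miR-125b* and in miR-125b-5p to miR-125b*, and they overlap in the other 4 ratios. Both ratios without overlap contain miR-125b*, the called row.

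The arm ratios of the other hairpins overlapped between the groups. Per read of the opposite arm, the control libraries held 380 to 476 reads of miR-99b and the AA libraries 382 to 455. The log2 difference was -0.03 (exact permutation p = 0.77, adjusted p = 0.84). For miR-99a the ratio was 105 to 114 in control rats and 104 to 176 in AA rats, where library 4 was the highest (difference 0.18, exact permutation p = 0.43, adjusted p = 0.62), and without that library the difference was 0.013. For miR-125a-5p to miR-125a-3p it was 70.8 to 101 and 56.6 to 78.4 (difference -0.28, exact permutation p = 0.26, adjusted p = 0.48), and without control library 3 the difference was -0.17. Over the whole table, 112 pairs of arms had both strands tested, and in 15 of them (13.4%) the log2 ratios of the groups did not overlap. The members supplied 5 of the 112 pairs, and 1 of the 5, miR-125b-5p to miR-125b*, did not overlap. Among these, miR-125b-5p, pooled from both of its hairpins, entered once with each of its opposite arms. By size without sign its difference ranked 27th of the 112, and that of miR-125b-5p to miR-125b-3p ranked 8th. The set of all pairs was chosen after the member values were seen.

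**Figure D4:**
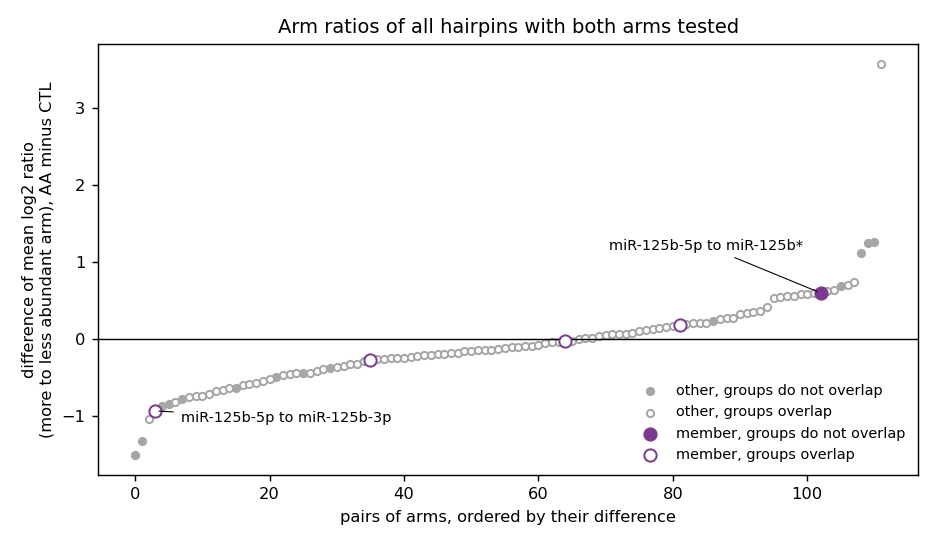
Difference in mean log2 ratio of the more to the less abundant arm, AA minus control, for 112 pairs of arms in order of size, with members in purple and filled points where the 4 AA and 4 control libraries do not overlap. miR-125b-5p to miR-125b* lies at 0.59 and miR-125b-5p to miR-125b-3p at -0.94, both within the range of the other pairs.

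For partners encoded in the same cluster, the ratio of miR-99 or miR-100 to miR-125 differed between groups by less than 1 SD of the AA rats. Since miR-125b-5p pools reads from both clusters that encode it, only miR-99b to miR-125a-5p among these is a ratio within 1 cluster. Its difference was larger than 1 SD of the control rats. miR-99b to miR-125a-5p had a log2 ratio of 3.99 ± 0.13 in control rats and 3.84 ± 0.25 in AA rats (SD, n = 4 each, difference -0.15, exact permutation p = 0.37, adjusted p = 0.60), and AA library 4 was the lowest at 3.50. Without it the difference was -0.04. miR-99a to miR-125b-5p differed by -0.06 (exact permutation p = 0.77, adjusted p = 0.84) and miR-100 to miR-125b-5p by -0.07 (exact permutation p = 0.69, adjusted p = 0.84). With 1 library left out these differences ran from -0.23 (without AA library 2) to 0.07 (without AA library 4) and from -0.22 (without control library 4) to 0.10 (without AA library 4), so neither had a stable direction. miR-99a to miR-100, strands of 1 family from different chromosomes, had log2 ratios of 0.80 ± 0.27 and 0.80 ± 0.23 (SD, n = 4 each, difference 0.01, exact permutation p = 0.94). Control library 4 had the largest ratio of its group at 1.08 and control library 1 the smallest at 0.44, so the spread between rats was wider than the difference between groups. miR-125a-5p to miR-125b-5p was tight in control rats, at -0.94, -0.91, -0.87 and -0.91, and stood at -0.89, -0.68, -0.63 and -0.58 in AA rats. Only AA library 1 reached into the control range (difference 0.21, exact permutation p = 0.0571, adjusted p = 0.19).

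The let-7 strands of the clusters, regulators of cell growth and differentiation, were set beside the members. Of their 6 rows, 4 were tested and none was called. With TMM, let-7a, let-7c and let-7e had log2 fold changes of 0.49, 0.40 and 0.19 (adjusted p = 0.19, 0.23 and 0.64 from edgeR), and both let-7a and let-7c are also made by hairpins elsewhere in the genome. miR-99a to let-7c had log2 ratios of -2.41, -1.83, -1.94 and -1.64 in the control libraries and -2.95, -2.24, -2.26 and -3.23 in the AA libraries. Control library 1 lay inside the AA range (difference -0.72, exact permutation p = 0.0857, adjusted p = 0.22). For miR-99b to let-7e, the difference was -0.34 (exact permutation p = 0.23, adjusted p = 0.48), and -0.19 without AA library 1 and -0.52 without AA library 3. let-7e* had 58, 76, 83 and 4 reads in the control libraries and 67, 1, 1 and 1 in the AA libraries, a split that did not follow the groups. miR-351, the further carrier of the miR-125 seed, was at 17.3, 15.0, 11.9 and 15.7 CPM in control rats and 34.6, 17.5, 13.7 and 56.9 in AA rats. Its log2 fold change of 1.03 was not called (standard error 0.41, adjusted p = 0.12 from edgeR).

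The lowest rat of a group was not the same for both families. In both groups library 4 was the lowest for 5 of the 6 miR-99 and miR-100 rows, the exception being miR-100*, and this held with TMM normalization and with total reads. It was not particular to these rows. With TMM normalization library 4 was also the lowest of both groups for miR-10a-5p, miR-10a-3p, miR-33 and miR-664. The share of all tested miRNAs with this pattern was not counted. For the 5 miR-125 rows the lowest were control library 3 and AA library 2 with TMM normalization. With total reads this held for only 1 of the 5, and those libraries had the largest TMM factors of their groups, 1.04 and 1.21. As deviations from the group means of log2 CPM over the 8 libraries, miR-99b and miR-100 had a Pearson r of 0.89, miR-99a and miR-100 of 0.78, miR-99a and miR-99b of 0.49, and miR-125a-5p and miR-125b-5p of 0.88. Between the families r with miR-125b-5p was 0.75 for miR-99b, 0.55 for miR-100 and 0.00 for miR-99a, and r with miR-125a-5p was 0.56, 0.42 and -0.03 in the same order, so that the correlations did not separate the families. Among the 202 other miRNAs with at least 100 reads in every library, the most alike to miR-99a were miR-664 and miR-10a-3p (r = 0.98 and 0.95), to miR-100 miR-33 and miR-10a-5p (r = 0.97 and 0.94), to miR-99b miR-215 and miR-100 (r = 0.90 and 0.89), to miR-125b-5p miR-30a and miR-125a-5p (r = 0.93 and 0.88), and to miR-125a-5p miR-547 and miR-375 (r = 0.89 and 0.89). These correlations describe 8 libraries that share their scaling, and they carry no test.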

How the data were processed

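Small RNA of 8 rat kidneys was read with the Illumina Genome Analyzer II. As deposited by the authors, the table holds raw counts per known rat miRNA, 1 column per library, after removal of short reads and mapping with miRanalyzer and Bowtie to the known rat miRNAs of miRBase. The genome build is not given in the sources used here. The submitters' processing notes also name DESeq. From these counts, the 367 miRNAs that reached 10 reads in 4 or more libraries were fitted in edgeR 4.0.16 under R 4.3.3 (TMM, glmQLFit, glmQLFTest, Benjamini-Hochberg over all of them, threshold 0.05). The standard error is the log2 fold change divided by the square root of F. Log2 ratios within a library took a pseudocount of 0.5 reads and the exact permutation test of SciPy 1.17.1. Correlations used log2 CPM with a prior count of 2. The edgeR step was tested on simulated data with known changes. These were larger than the log2 fold changes of the members, so changes of the members' size were not covered. Alternatives were DESeq2 1.42.0 (Wald test, size factors), total counts, other filters, the library number as a block, fewer libraries, removal of the 3 most abundant miRNAs and other pseudocounts. Libraries of a group differed by a chi-square of at least 437 per degree of freedom. That measure covers counting error only, so it speaks against a library being read again and not against a second library from 1 rat.

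The named miRNAs are all member rows, the let-7 rows of their clusters, rows with a member's seed, the marker lists and the 2 miRNAs most like each mature strand. The 3 most abundant, also part of the rule, were miR-378, miR-143 and miR-30a. Liver and red blood cell lists held miR-122, miR-122*, miR-144 and miR-451, and leukocytes miR-142-3p, miR-142-5p, miR-150 and miR-223. Fibroblast and stroma were miR-199a-3p, miR-199a-5p and miR-214. Members and lists were chosen with earlier results of these data known.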

Additional observations from a re-analysis of the deposited data

Results flagged for a closer look

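Over 62 groups of 4 libraries examined, 6 values stood far from the other 3 of their group, and chance alone gives about 1 in 20, or 3.1. Most rest on few reads. let-7c-1* was at 1.55 CPM in control library 4 and at 1.599 CPM in AA library 4, against at most 0.488 CPM in the others. let-7e* was at 5.18 CPM in AA library 1 and at most 0.0688 CPM in the other AA libraries. miR-100* was at 0.620 CPM in control library 3, from 10 reads, against at most 0.2999 CPM, and let-7a-2* was at 0.124 CPM in the same library against at most 0.0815 CPM. The log2 ratio of miR-125b-5p to miR-125b-3p was 8.99 in control library 4, while the other control libraries lay at 9.60 or above.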

How the results depend on the processing

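The number of miRNAs called, 60 (38 higher, 22 lower), was 52 to 78 under other scalings, filters and tests, and 36 to 54 with 1 library left out (25 to 36 higher, 11 to 21 lower). With total counts 14 were lower and 54 higher. The number of members called, 1, was 0 with total counts, 0 without both libraries numbered 4, and 0 to 1 with 1 library left out. The log2 fold change of miR-125b* stayed between -1.02 and -0.60 in all 16 alternatives and kept its call in 9. That of miR-125a-5p, 0.00 in the reported fit, was -0.054 with DESeq2 size factors, -0.054 with the DESeq2 Wald test, -0.000073 without a filter, -0.0078 with the replicate block, -0.048 without both libraries numbered 4 and -0.095 less the 3 most abundant miRNAs, and -0.114 to 0.076 with 1 library left out, but 0.029 with 10 reads required in all 8 libraries and 0.206 with total counts. With total counts, miR-99b was at 0.041, miR-99b* at 0.065, miR-99a at -0.05, miR-100 at -0.08, miR-125b-5p at -0.013, miR-99a* at -0.17, miR-125a-3p at 0.49 and miR-125b-3p at 1.06. Apart from these reversals of miR-125a-5p, miR-99b and miR-99b*, members kept their direction in all 16 alternatives, and no member other than miR-125b* was called in any. With 1 library left out, the log2 fold change was 0.44 to 1.04 for miR-125b-3p and 0.08 to 0.39 for miR-125a-3p (lowest without AA library 4), -0.45 to -0.14 for miR-100, -0.37 to -0.13 for miR-125b-5p and -0.32 to -0.05 for miR-99b (nearest to 0 without control library 1), -0.45 to -0.22 for miR-99a and -0.56 to -0.24 for miR-99a* (nearest to 0 without AA library 4), and -0.29 to -0.09 for miR-99b*. The 13 ratios kept their direction, or moved by less than the spread between rats, under both other pseudocounts, the block and each library left out. With 1 library left out the difference turned sign in 4 small ratios, miR-99a to miR-100 (-0.11 to 0.10), miR-99b to miR-99b* (-0.08 to 0.02), miR-99a to miR-125b-5p (-0.23 to 0.07) and miR-100 to miR-125b-5p (-0.22 to 0.10). The block and the fits with a library left out gave values with no test for the ratios.

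With the library number as a replicate block, 78 miRNAs were called, 57 of them shared, and 1 member, miR-125b*, with adjusted p = 0.039 from edgeR. The block changed no other member's call. Deviations of same-numbered libraries correlated at 0.05, 0.20, 0.14 and 0.35. Numbers 2, 3 and 4 matched their own number best, which is a hint of pairing in the data, but number 1 did not and the labels give no shared source, so the rats were compared without pairing. miR-100*, with at most 10 reads in a library, was not tested.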
